A study of Mus musculus with 8 samples.

Results

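The 5 genes described here, Dmrta1, Dmrta2, Dmrt1, Dmrt3 and Dmrt2, belong to the DM-domain family of DNA-binding proteins, and the measurement is chromatin accessibility around them in single nuclei of the mouse embryonic forebrain. An element is a stretch formed by merging overlapping peaks of the 8 samples, and the elements of a gene are those within 50 kb of its body. Of 292532 merged regions in the series, 77 were elements of these 5 genes: 18 of Dmrta1, 17 of Dmrta2, 34 of Dmrt1, 19 of Dmrt3 and 16 of Dmrt2. The genes were chosen because Dmrta1 and Dmrt1 had been among the genes most open in a group of nuclei from the later cortex sample, so values from that sample are given as a description, and tests that use them stand only among the alternative settings at the end.

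Single-nucleus ATAC-seq had been run on wild-type (WT) embryos, with 2 samples from each of the cortex (CTX) and the medial, lateral and caudal ganglionic eminences (MGE, LGE and CGE, jointly GE), the ventral structures that produce most forebrain GABAergic neurons. Every sample was labelled E12.5, in days of embryonic development, except CTX replicate 2, which was E14.5. Values of the E12.5 and E14.5 cortex samples are therefore given apart, and age, replicate number and any difference of dissection cannot be told apart between them. Nothing in the labels says that replicates came from separate litters or animals, so the p-values measure the spread between these samples, which may be technical.

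DM-domain proteins bind DNA through intertwined zinc-binding modules and are best known from sexual development. Dmrta1, Dmrta2 (also called Dmrt5) and Dmrt3 form the DMRTA branch of the family and are expressed in progenitors of the dorsal telencephalon, highest towards its caudal and medial side. There Dmrta2 and Dmrt3 act in cortical patterning and in holding back the ventral gene Gsx2. Dmrt1 is known as a regulator of testis differentiation and germ cells, and Dmrt2 for its role in somites. Dmrt1, Dmrt3 and Dmrt2 lie in a row on chromosome 19, so their windows overlap.

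Peaks were counted in 39253 nuclei, 3465 to 6845 per sample, with 77387940 to 138873845 counts in peaks per sample and medians of 14584 to 22209.5 counts per nucleus. Element levels are given as CPM, the count of an element in every 1000000 counts in the 68274 regions that had a peak in all 8 samples. These held 77.8% of the counts of the E12.5 cortex, 87.0% of the E14.5 cortex and 89.7% to 95.1% of those of the GE samples. Where a sample had no peak, no value was counted. The share of odd count entries was 9.54% to 10.4% in the samples numbered 1 and 5.17% to 5.85% in those numbered 2, so the replicate number also marks a technical difference of unknown origin. Library pairs shared 15 to 56 barcodes. Each sample is a sum over nuclei, in which fewer cells of a type and less signal per cell cannot be told apart.

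The gene bodies, in GRCm38 (mm10) coordinates with GENCODE M21 annotation, all run on the plus strand. Dmrta1 (ENSMUSG00000043753.2) occupies chr4:89679436-89694772 and Dmrta2 (ENSMUSG00000047143.3) chr4:109978053-109983687. On chromosome 19, Dmrt1 (ENSMUSG00000024837.15) spans chr19:25505618-25604329, Dmrt3 (ENSMUSG00000042372.5) chr19:25610301-25623921 and Dmrt2 (ENSMUSG00000048138.10) chr19:25672411-25678991. Elements are named below by the nearest gene and the distance in kb from its first annotated start to the middle of the element, negative for upstream.

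Sequences are shown for the narrower elements that separated the samples, because the comparisons below turn on them. The stretch upstream of Dmrta1 and Dmrta2 is also shown, because the earliest starts of these genes differ in base composition. All are plus-strand GRCm38 reference sequence. Capitals mark any match, on either strand, to ACANTGT, the core of the DM-domain consensus, to TAATTA, a homeodomain core, or to CAGATG, an E-box of neurogenic bHLH proteins. In windows of 300 bases at the middle of the 68274 shared regions, these words occurred in 8.52%, 10.6% and 22.5% of windows. The central 300 bases of the Dmrt1 +93.7 kb element, in an intron of Dmrt1 (chr19:25598737-25599036), held 1 TAATTA. Those of the intergenic Dmrta1 -28.3 kb element (chr4:89650883-89651182) held 1 CAGATG, on the minus strand. Those of the intergenic Dmrt1 -43.5 kb element (chr19:25462027-25462326) and of the Dmrta2 -38.7 kb element in an intron of Faf1 (chr4:109939330-109939629) held no match.
Dmrt1 +93.7 kb: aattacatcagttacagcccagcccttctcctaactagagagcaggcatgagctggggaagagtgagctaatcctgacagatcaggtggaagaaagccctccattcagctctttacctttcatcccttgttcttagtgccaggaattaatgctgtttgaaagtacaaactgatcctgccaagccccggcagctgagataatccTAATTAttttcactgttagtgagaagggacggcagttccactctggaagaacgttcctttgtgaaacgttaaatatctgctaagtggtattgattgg
Dmrta1 -28.3 kb: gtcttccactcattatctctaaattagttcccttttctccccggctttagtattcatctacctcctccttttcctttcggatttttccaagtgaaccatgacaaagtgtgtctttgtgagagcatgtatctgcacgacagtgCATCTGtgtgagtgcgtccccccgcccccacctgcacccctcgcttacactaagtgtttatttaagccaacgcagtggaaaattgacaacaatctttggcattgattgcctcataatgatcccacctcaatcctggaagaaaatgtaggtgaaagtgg
Dmrt1 -43.5 kb: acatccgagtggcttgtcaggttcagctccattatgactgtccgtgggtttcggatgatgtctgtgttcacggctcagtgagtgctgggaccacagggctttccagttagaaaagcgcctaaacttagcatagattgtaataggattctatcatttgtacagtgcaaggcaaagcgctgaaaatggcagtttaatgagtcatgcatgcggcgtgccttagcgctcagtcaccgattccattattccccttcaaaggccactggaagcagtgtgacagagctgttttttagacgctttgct
Dmrta2 -38.7 kb: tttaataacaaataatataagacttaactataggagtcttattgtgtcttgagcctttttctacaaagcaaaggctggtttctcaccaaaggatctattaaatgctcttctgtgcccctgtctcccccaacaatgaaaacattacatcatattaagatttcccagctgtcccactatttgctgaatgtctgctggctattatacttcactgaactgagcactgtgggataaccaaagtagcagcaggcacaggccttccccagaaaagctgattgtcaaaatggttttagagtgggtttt

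Upstream sequence of 250 bases was cut from GRCm38 before the earliest start of each gene in GENCODE M21 or RefSeq. The Dmrta2 window (chr4:109977775-109978024) had 61.6% G and C and held ACANTGT at 2 places, ACACTGT and ACATTGT. Among 32851 RefSeq windows of this length, 6.47% held the word and 0.301% held it at 2 or more places. This window also overlaps an annotated exon of the antisense gene Dmrta2os. The Dmrta1 window (chr4:89679186-89679435) had 36.0% G and C and no match to the 3 words, and neither had the Dmrt3 window (chr19:25610051-25610300), with 68.0% G and C. A match is a description of the letters and not evidence of binding.
Dmrta2 upstream: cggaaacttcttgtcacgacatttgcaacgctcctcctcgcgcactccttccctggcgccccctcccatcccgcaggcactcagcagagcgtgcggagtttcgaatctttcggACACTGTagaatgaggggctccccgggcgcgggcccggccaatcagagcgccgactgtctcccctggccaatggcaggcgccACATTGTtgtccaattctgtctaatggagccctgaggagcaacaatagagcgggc
Dmrta1 upstream: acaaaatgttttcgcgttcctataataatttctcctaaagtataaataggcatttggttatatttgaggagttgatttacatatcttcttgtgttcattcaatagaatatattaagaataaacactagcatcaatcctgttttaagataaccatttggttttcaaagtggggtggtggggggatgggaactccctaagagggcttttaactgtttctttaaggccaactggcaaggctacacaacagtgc

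The E14.5 cortex had a peak at 64 of the 77 elements and the E12.5 cortex at 43, whereas the GE samples had between 23 and 42. As shares, these are 83.1% and 55.8% for the cortex samples, against 54.4% and 60.1% of all 292532 regions. The GE samples had 29.9% to 54.5% of the elements, against 32.5% to 59.9% of all regions. Peaks in the E14.5 cortex alone made up 19 of the 77 elements, or 24.7%, against 7.91% of all regions, and peaks in both cortex samples alone made up 5, or 6.49%, against 3.14%. All 18 Dmrta1 elements had a peak in the E14.5 cortex, compared with 9 in the E12.5 cortex and 3 to 11 in the GE samples. Because the E14.5 sample chose the genes, these shares carry no test.

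**Figure D1:**
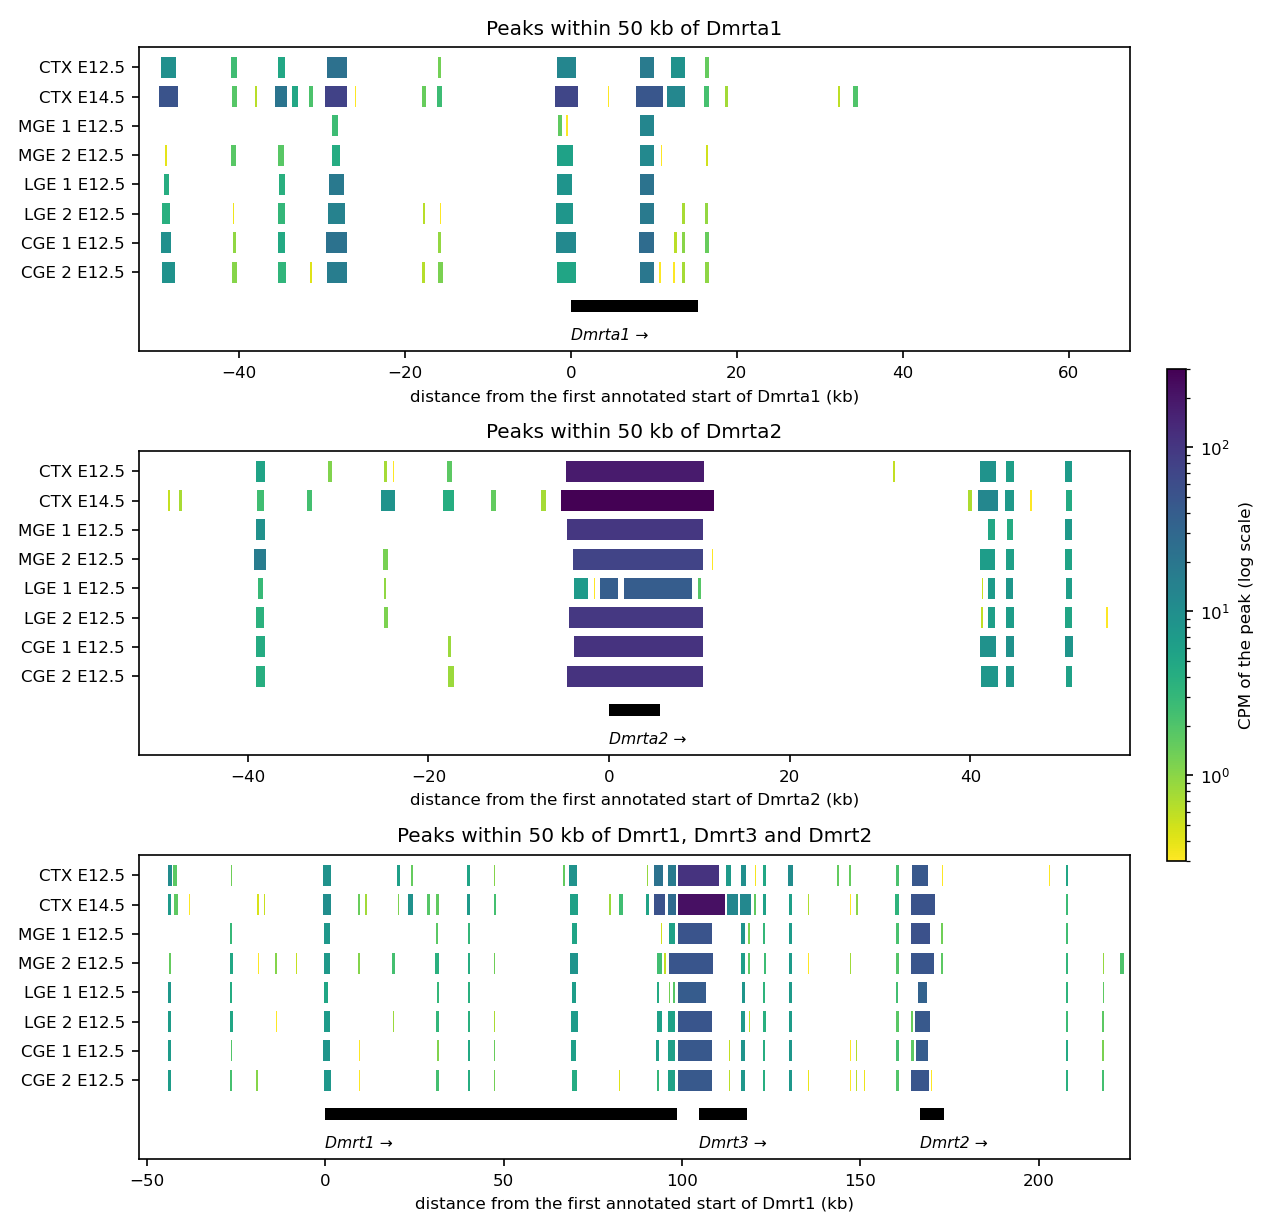
Peaks within 50 kb of the 5 genes, 1 line per sample, drawn by distance from the first annotated start of Dmrta1, Dmrta2 or Dmrt1 (horizontal axis, kb) and coloured by the CPM of the peak on a log scale, with black bars for gene bodies. The Dmrta1 window is densest in the E14.5 cortex, which has a peak at all 18 elements, and a single broad peak covers Dmrta2 in most samples.

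A peak in all 8 samples was found at 21 of the 77 elements, and the tests below concern these. By gene, they were 3 of 18 for Dmrta1, 5 of 17 for Dmrta2, 10 of 34 for Dmrt1, 8 of 19 for Dmrt3 and 6 of 16 for Dmrt2, with elements in overlapping windows counted for each gene. Among the 56 others, 27 had a peak in some GE sample, at no more than 9.66 CPM, and 29 had none. The threshold of 50 kb kept in the Dmrta1 -48.5 kb element, whose edge is 47.4 kb away, and left out an element 51.7 kb away that had a peak in the E12.5 cortex alone, at 0.889 CPM. For Dmrt1 it kept in an element 43.0 kb upstream of the body and left out another at 53.8 kb that had 2.22 to 3.77 CPM in all 8 samples.

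At the start of Dmrta1, the Dmrta1 -0.5 kb element, accessibility was 12.7 CPM in the E12.5 cortex and 70.0 CPM in the E14.5 cortex. The same element had 1.64 and 5.61 CPM in the MGE samples, 8.31 and 7.91 CPM in the LGE samples, and 11.7 and 5.22 CPM in the CGE samples. The E12.5 cortex thus lay just above the highest GE sample, and the E14.5 cortex was 5.51 times the E12.5 cortex. The second annotated start of Dmrta1, in the +9.5 kb element, was open in every sample. It had 17.4 and 46.9 CPM in the cortex samples, 12.6 and 11.6 in MGE, 21.6 and 17.9 in LGE, and 27.1 and 19.7 in CGE, so that the E12.5 cortex fell inside the range of the GE samples. The central 300 bases of these starts differed, with 40.7% G and C at the former and 71.7% at the latter, against a median of 51.0% over all shared regions.

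Upstream of Dmrta1, the -28.3 kb element had 23.4 CPM in the E12.5 cortex and 76.7 CPM in the E14.5 cortex. In MGE it had 2.60 and 4.31 CPM, in LGE 18.5 and 13.9 CPM, and in CGE 22.3 and 16.4 CPM. The E12.5 cortex was close to LGE and CGE, and both MGE samples stood far below all others. The -48.5 kb element showed a like order, with 9.56 and 51.7 CPM in the cortex samples, 4.00 and 3.85 in LGE, 9.66 and 9.13 in CGE, and in MGE no peak in replicate 1 and 0.401 CPM in replicate 2. At -34.9 kb the E14.5 cortex had 21.3 CPM, and the other samples with a peak had 1.80 to 4.91. These flanking elements, like the others named below that are neither at a start nor among the broadest or the most changed, were singled out after their values were seen.

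Dmrta2 is covered by a single domain of 16881 bp, the +3.1 kb element, that takes in the starts of Dmrta2 and of its antisense neighbour Dmrta2os. Its level was 183 CPM in the E12.5 cortex and 297 CPM in the E14.5 cortex, compared with 101 and 75.3 in MGE, 88.9 and 97.0 in LGE, and 110 and 109 in CGE. Both cortex samples were above all 6 GE samples, yet the domain was open everywhere. It ranked 73 by width among the 68274 shared regions, whose median width was 1533 bp. The longest single peak there measured 15.2 kb in the E12.5 cortex, rank 41 of 181339 peaks, and 16.9 kb in the E14.5 cortex, rank 16 of 167718. LGE replicate 1, where 5 peaks made up the domain, had a longest peak of 7.58 kb, and the other GE samples 14.3 to 15.1 kb. Per covered kb, the domain had 12 and 17.6 CPM in the cortex and 5.22 to 7.77 CPM in the GE samples. Strand cannot be read from these counts, so Dmrta2 and Dmrta2os were not separated.

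Dmrt3 has a similar domain of 16090 bp, the -0.7 kb element, which runs from the last part of Dmrt1 to past the Dmrt3 start. It had 126 CPM in the E12.5 cortex and 253 CPM in the E14.5 cortex. In the GE samples it had 55.5 and 48.1 CPM in MGE, 44.8 and 54.0 CPM in LGE, and 51.7 and 50.2 CPM in CGE, and both cortex samples were above all 6 of these. Per covered kb the cortex samples had 9.13 and 16.5 CPM and the GE samples 3.93 to 5.29 CPM. It ranked 89 by width among the shared regions. Farther into the gene, the +9.4 kb element in an intron of Dmrt3 had 7.05 and 12.3 CPM in the cortex. It had 0.564 and 0.610 CPM in CGE, and no peak in any MGE or LGE sample.

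Between these genes, the Dmrt1 +93.7 kb element of 3363 bp lies in an intron of Dmrt1 and falls inside the windows of both Dmrt1 and Dmrt3. It had 22.4 CPM in the E12.5 cortex and 53.2 CPM in the E14.5 cortex. The GE samples had 1.08 and 2.98 CPM in MGE, 4.54 and 5.96 CPM in LGE, and 5.91 and 3.28 CPM in CGE. Both cortex samples were above all 6 GE samples. The peak covered 2600 and 3294 bp in the cortex and 423 to 1737 bp in GE. Per covered kb the cortex had 8.60 and 16.1 CPM and the GE samples 1.71 to 7.59 CPM, so that the E12.5 cortex was close to LGE replicate 1. At the start of Dmrt1 itself, the +0.4 kb element, values were 8.86 and 10.1 CPM in the cortex and 5.02 to 8.11 CPM in the GE samples, a much smaller difference.

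The 1077 bp Dmrt1 -43.5 kb element was low in MGE, with 0.954 and 1.52 CPM, and had 7.52 and 6.68 CPM in LGE, 6.94 and 6.70 CPM in CGE, and 11.0 and 7.23 CPM in the E12.5 and E14.5 cortex. It is the only cortex-high element named here that was lower in the E14.5 cortex than in the E12.5 cortex, at 0.657 times. The Dmrt2 +0.6 kb element, which holds the starts of Dmrt2 and 2610016A17Rik, had 46.0 and 50.9 CPM in the cortex, 54.4 and 48.9 in MGE, 35.4 and 45.9 in LGE, and 41.6 and 49.1 in CGE, and both cortex samples lay within the GE range.

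**Figure D2:**
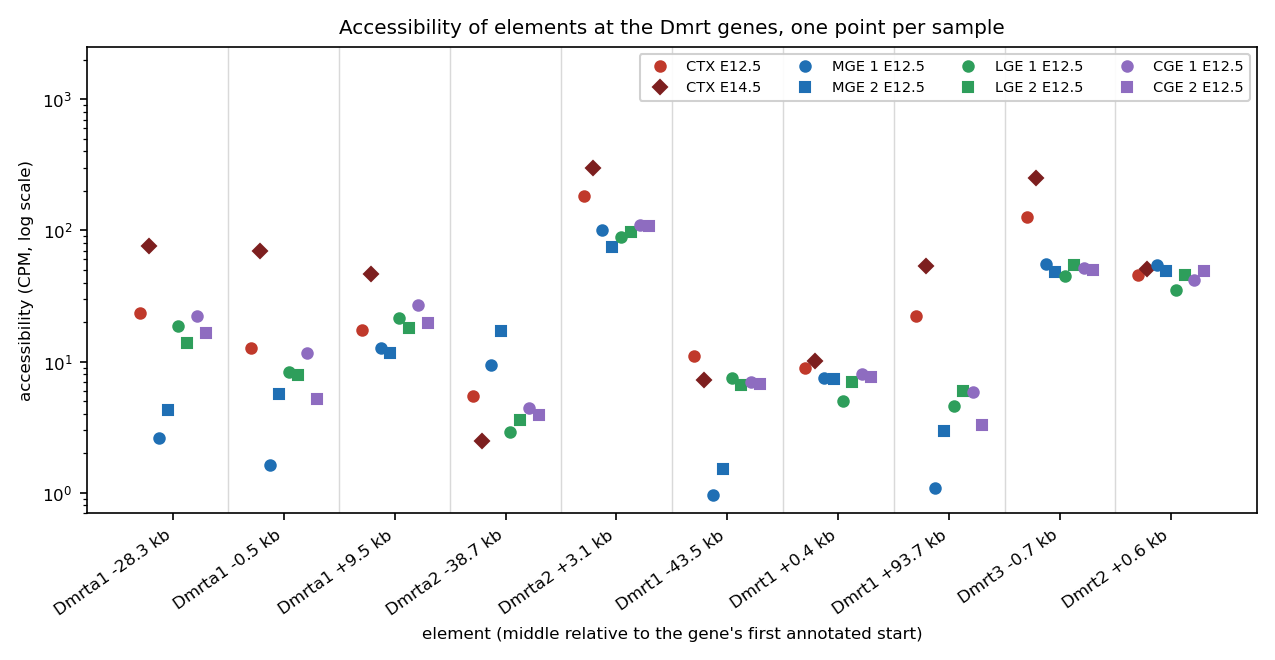
Accessibility of 10 elements at the Dmrt genes (vertical axis, CPM on a log scale), with 1 point per sample, coloured by region and shaped by replicate. The E14.5 cortex (diamond) is the highest sample at 7 of the 10 elements. Both MGE samples are the lowest at Dmrta1 -28.3 kb, Dmrta1 +9.5 kb, Dmrt1 -43.5 kb and Dmrt1 +93.7 kb. The samples do not separate by region at Dmrt2 +0.6 kb.

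To ask which elements distinguished the cortex from the ventral regions at the same age, the E12.5 cortex was tested against the mean of MGE, LGE and CGE in edgeR, with Benjamini-Hochberg adjustment over all 68274 regions and the cortex sample assumed to vary like the GE replicates. Across all regions, 26.3% were called at an adjusted p of 0.05, 16.0% higher and 10.4% lower in the cortex. Of the 21 tested elements, 5 were called, or 23.8%, all higher in the cortex. This share is near that of all regions, and the members stand out by neither number nor share. The median log2 fold change over the 21 elements was 0.52, against 0.00266 over all regions, and 19 of 21 were positive. The 5 elements, at Dmrta1, Dmrta2, Dmrt1 and Dmrt3, are those described above.

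The Dmrt1 +93.7 kb element rose by a log2 fold change of 2.67 (SE 0.41, adjusted p = 0.00286 in edgeR). The Dmrt1 -43.5 kb element rose by 1.55 (SE 0.25, adjusted p = 0.00336) and the Dmrt3 domain by 1.36 (SE 0.17, adjusted p = 0.00123). With an offset for covered length these 3 stayed called, at 1.16, 0.85 and 1.04 (adjusted p = 0.0126, 0.0343 and 0.000417). The fit with the offset called 4 of the 21 elements and 14.7% of all regions. Without the offset, the Dmrta1 -28.3 kb element rose by 1.25 (SE 0.26, adjusted p = 0.0107) and the Dmrta2 domain by 0.97 (SE 0.18, adjusted p = 0.00712). The Dmrta1 start at -0.5 kb, with a log2 fold change of 1.08, did not pass (SE 0.53, adjusted p = 0.193). Neither did the +9.5 kb start of Dmrta1, the start of Dmrt1, or the start of Dmrt2, whose log2 fold changes were 0.02, 0.37 and 0.05. The lowest of the 21, Dmrt1 -26.3 kb, had a log2 fold change of -1.26 and an adjusted p of 0.0515. It had 1.37 and 0.127 CPM in the cortex samples and 1.98 to 4.97 CPM in the GE samples.

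Since both MGE samples were low at Dmrta1 -28.3 kb and Dmrt1 -43.5 kb, the same model was read with MGE left out of the contrast, a choice made after seeing the values. Against the mean of LGE and CGE alone, 23.6% of all regions were called and 3 of the 21 elements. Dmrt1 +93.7 kb remained called with a log2 fold change of 2.25 (adjusted p = 0.0100 in edgeR), as did the Dmrt3 domain with 1.39 (adjusted p = 0.00182) and the Dmrta2 domain with 0.92 (adjusted p = 0.0124). Dmrta1 -28.3 kb, at 0.47, and Dmrt1 -43.5 kb, at 0.73, were no longer called (adjusted p = 0.303 and 0.0985). The call at Dmrta1 -28.3 kb was also lost with an offset for covered length, at 0.69 (adjusted p = 0.0610), and over the regions with a peak in at least 2 samples (adjusted p = 0.0586).

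The technical split by replicate number was followed within each number, the cortex sample numbered 2 being the E14.5 one, whose ratios are a description. At Dmrt1 +93.7 kb, the cortex was 5.81 times the mean of the 3 GE samples numbered 1 and 13.1 times that of the 3 numbered 2. The corresponding ratios were 2.49 and 4.98 for the Dmrt3 domain, 1.83 and 3.16 for the Dmrta2 domain, 1.62 and 6.66 for Dmrta1 -28.3 kb, and 2.14 and 1.46 for Dmrt1 -43.5 kb. In each case the cortex sample was above all 3 GE samples of its own number. At the -0.5 kb start of Dmrta1 the ratios were 1.76 and 11.2, and at its +9.5 kb start 0.853 and 2.85. At the Dmrt2 start they were 1.05 and 1.06.

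**Figure D3:**
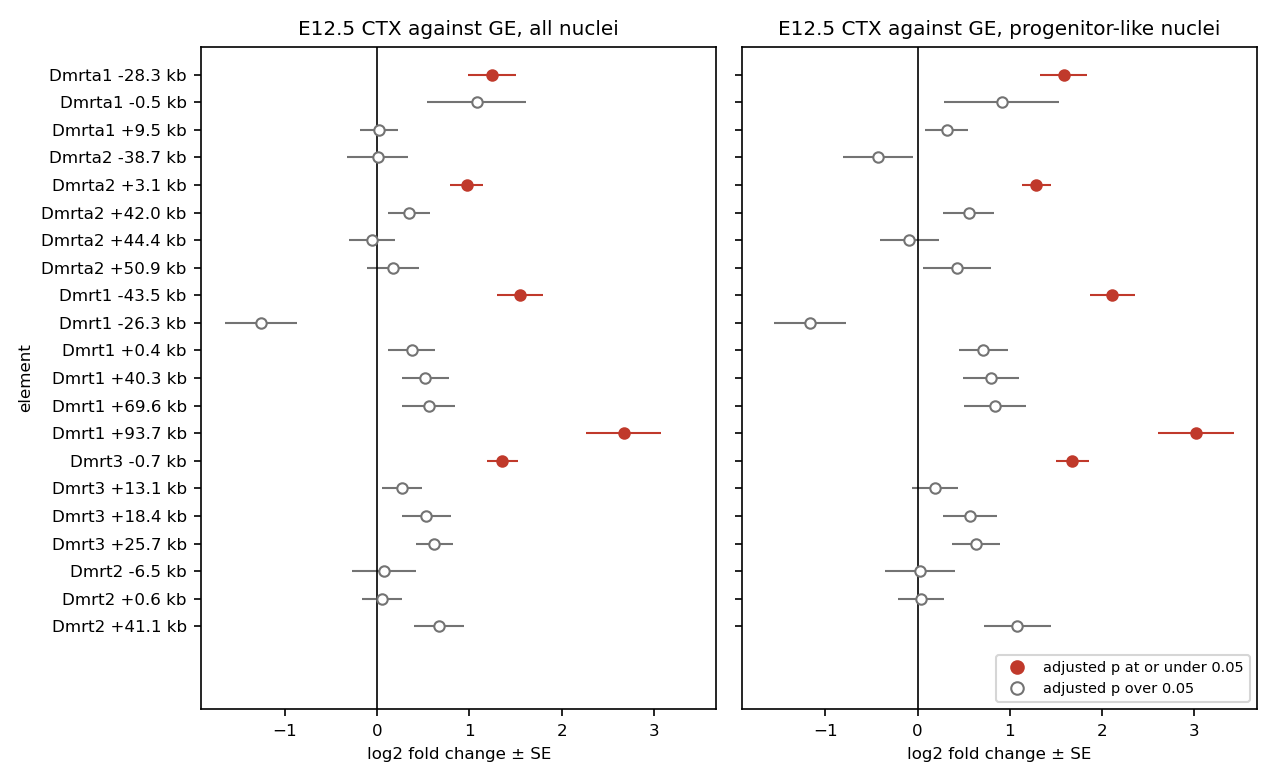
Log2 fold change of the E12.5 cortex against the mean of the eminences (horizontal axis, with bars of 1 SE) at the 21 tested elements, over all nuclei (left) and over progenitor-like nuclei (right), with filled red points for an adjusted p of 0.05 or less. The same 5 elements are filled in both panels, and Dmrt1 +93.7 kb lies farthest to the right, at 2.67 and 3.02.

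Within the eminences, MGE was compared with LGE and with CGE in the same model. At 3 of the 21 elements MGE and LGE differed, or 14.3%, against 10.1% of all regions. At Dmrt1 -43.5 kb MGE was lower by a log2 fold change of -2.52 (SE 0.28, adjusted p = 0.00389 in edgeR), and at Dmrta1 -28.3 kb by -2.22 (SE 0.28, adjusted p = 0.00547). The exception in direction was the Dmrta2 -38.7 kb element, in an intron of the neighbouring gene Faf1, where MGE was higher by 2.03 (SE 0.32, adjusted p = 0.0101). That element had 9.34 and 17.0 CPM in MGE, 2.89 and 3.60 in LGE, 4.43 and 3.94 in CGE, and 5.47 and 2.48 in the cortex samples, so MGE was above every other sample. Without LGE replicate 1 the call was lost, at 1.85 (adjusted p = 0.0502).

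MGE and CGE differed at 4 of the 21 elements, against 8.87% of all regions. These were Dmrt1 -43.5 kb at -2.41 (adjusted p = 0.00515 in edgeR), Dmrta1 -28.3 kb at -2.42 (adjusted p = 0.00549), Dmrta1 +9.5 kb at -0.87 (adjusted p = 0.0346) and Dmrta2 -38.7 kb at 1.72 (adjusted p = 0.0184). The call at Dmrta1 +9.5 kb was lost on leaving out any 1 GE replicate (adjusted p = 0.0511 to 0.209), and that at Dmrta2 -38.7 kb without either CGE replicate (adjusted p = 0.104 and 0.121). LGE and CGE differed at 0 of the 21 elements and at 0 of all 68274 regions (0.00%) in edgeR. At an unadjusted p under 0.05, edgeR gave 8130 regions and 1 of the 21 elements, and DESeq2 called 2641 regions and 0 of the 21 elements at its adjusted 0.05. The broad domains of Dmrta2 and Dmrt3 were not called in any contrast among the eminences.

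To compare like nuclei, each sample was clustered on its own using the shared regions outside the windows of the 5 genes, and clusters were named from marker genes. A progenitor-like cluster was found in the E12.5 cortex (1233 nuclei, 30.01% of the sample, with 9 of 10 progenitor markers raised) and in every GE sample, at 29.96% to 43.4% of nuclei. No cluster of the E14.5 cortex met the rule for progenitor-like nuclei. In that sample 62.4% of nuclei were in unnamed clusters, so this does not show that progenitors were absent. The label of a progenitor family can therefore be checked at E12.5 only, and the E14.5 cortex does not enter this comparison.

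In progenitor-like nuclei, 5 of the 21 elements were again called between the E12.5 cortex and GE, or 23.8%, against 22.8% of all regions (15.2% higher in the cortex), and they were the same 5 elements as over all nuclei. The log2 fold changes were 3.02 at Dmrt1 +93.7 kb, 2.11 at Dmrt1 -43.5 kb, 1.68 at the Dmrt3 domain, 1.58 at Dmrta1 -28.3 kb and 1.29 at the Dmrta2 domain (edgeR adjusted p = 0.00124, 0.000597, 0.000467, 0.0028 and 0.000798). With MGE left out of the contrast, 4 stayed called, against 20.4% of all regions, and Dmrta1 -28.3 kb was lost at 0.59 (adjusted p = 0.202). MGE differed from LGE at 5 of the 21 elements, against 12.1% of regions, and from CGE at 4, against 9.21%. Added to those found over all nuclei for LGE were Dmrt1 +93.7 kb, at -1.97 (adjusted p = 0.0350), and Dmrta1 +9.5 kb, at -0.91 (adjusted p = 0.0311). Both of these were lost without LGE replicate 1, LGE replicate 2 or MGE replicate 1, leaving 3 calls, and Dmrta1 +9.5 kb also without MGE replicate 2. The share of all regions called between MGE and LGE was 6.55%, 7.45%, 7.55% and 12.6% in these fits, in the same order. The 4 calls against CGE fell to 2 without CGE replicate 1 and to 3 without CGE replicate 2, with 3.01% and 3.79% of all regions called. LGE and CGE differed at 0 of the 21, against 0.0308% of regions. In that contrast edgeR gave 2 of the 21, and 7348 of all 68274 regions, at an unadjusted p under 0.05. DESeq2 called 0 of the 21 and 2.35% of regions.

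Within the E12.5 cortex, the 5 elements called against GE had their highest level in progenitor-like nuclei. Levels were lower in intermediate progenitor-like, glutamatergic-like and GABAergic-like nuclei, given here as values of 1 sample with no test. Dmrta1 -28.3 kb had 37.7 CPM in progenitor-like, 18.9 in intermediate progenitor-like, 13.4 in glutamatergic-like and 12.1 in GABAergic-like nuclei. The Dmrta2 domain had 247, 209, 132 and 85.5 CPM in the same order, and the Dmrt3 domain 164, 132, 95.5 and 65.4 CPM. Dmrt1 +93.7 kb had 37.1, 21.8, 11.2 and 9.08 CPM, so that progenitor-like nuclei had 3.32 times the level of glutamatergic-like nuclei, and Dmrt1 -43.5 kb had 15.8, 9.01, 8.08 and 5.29 CPM. Not every element had this order. Intermediate progenitor-like nuclei were above progenitor-like nuclei at the -0.5 kb start of Dmrta1, with 22.7 against 13.2 CPM. They were also above at Dmrta2 -38.7 kb, with 11.3 against 5.06 CPM. At the +9.5 kb start of Dmrta1 they were below, with 16.3 against 25.4 CPM. At Dmrta2 +44.4 kb and Dmrta2 +50.9 kb the GABAergic-like nuclei were highest of the 4 classes, at 9.08 and 14.0 CPM against 5.04 and 6.21 CPM in progenitor-like nuclei. The Dmrt2 start ran the other way, from 40.0 CPM in progenitor-like to 53.2 CPM in glutamatergic-like nuclei. The GABAergic-like cluster of this sample held 188 nuclei whose median count was 0.286 of the sample's median.

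In the eminences, progenitor-like nuclei exceeded GABAergic-like nuclei in 5 of 6 samples at Dmrta1 -28.3 kb, at the Dmrta2 domain and at Dmrt1 +93.7 kb, in 4 of 6 at the Dmrt3 domain, in 2 of 6 at Dmrt1 -43.5 kb, and in 0 of 6 at the Dmrt2 start. At Dmrta1 -28.3 kb the progenitor-like levels were 2.44 and 4.13 CPM in MGE, 26.4 and 19.2 in LGE, and 34.5 and 25.2 in CGE. Glutamatergic-like nuclei were found in LGE (17.2% and 12.6% of nuclei) and CGE (14.0% and 10.8%) but met the rule in neither MGE sample. In these nuclei the Dmrta2 domain had 114, 145, 142 and 154 CPM, above the progenitor-like nuclei of the same samples at 99.1, 93.3, 138 and 126 CPM. What part these nuclei have in the LGE and CGE sums was not tested.

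Progenitor-like nuclei were not uniform in LGE. In LGE replicate 1, a smaller progenitor-like cluster of 451 nuclei had 86.5 CPM at Dmrta1 -28.3 kb (95% interval 77.7 to 96.2), and the main cluster of 2147 nuclei had 14.4 CPM (12.8 to 16.2). The smaller cluster also had 210 against 77.0 CPM at the Dmrta2 +3.1 kb domain, 98.8 against 37.2 at the Dmrt3 -0.7 kb domain, 19.2 against 5.09 at Dmrt1 +93.7 kb and 15.5 against 6.16 at Dmrt1 -43.5 kb. Dmrta2 was among the 10 genes with the largest fold in that cluster, although no element of the 5 genes had entered the clustering. In LGE replicate 2, the progenitor-like clusters of 1277 and 682 nuclei had 26.9 and 4.74 CPM at Dmrta1 -28.3 kb, and 106 and 70.0 CPM at the Dmrta2 domain. These intervals cover counting error only and were set on fragments, 2 counts each, because both ends of a fragment are counted.

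**Figure D4:**
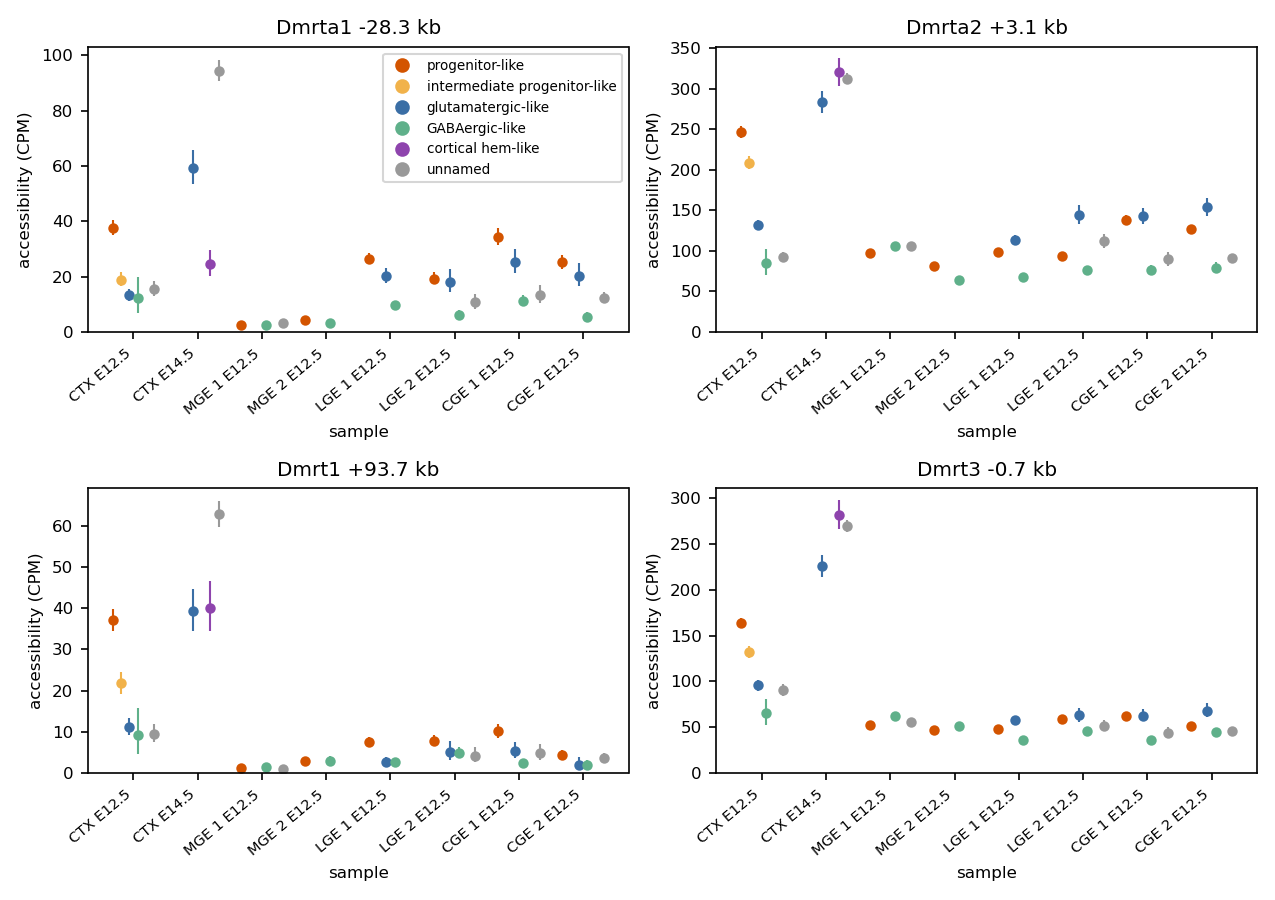
Accessibility by class of nuclei in each sample (vertical axes, CPM) at Dmrta1 -28.3 kb, the Dmrta2 domain, Dmrt1 +93.7 kb and the Dmrt3 domain, with bars for 95% exact Poisson intervals on fragments. In the E12.5 cortex the progenitor-like point is the highest class in every panel, and in the E14.5 cortex, which has no progenitor-like class, the unnamed nuclei reach 94.4 CPM at Dmrta1 -28.3 kb against 24.6 CPM in hem-like nuclei.

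In the E14.5 cortex, the nuclei fell into 2 unnamed clusters of 1630 and 1455 nuclei, the latter led by Ttr, a glutamatergic-like cluster of 814, a cortical hem-like cluster of 655 (13.2% of nuclei) and 3 small non-neural ones. Across the first 4, Dmrta1 -28.3 kb had 98.6, 89.0, 59.3 and 24.6 CPM and the start at Dmrta1 -0.5 kb 86.1, 80.3, 67.9 and 26.1 CPM, so Dmrta1 was lowest in hem-like nuclei. The Dmrta2 +3.1 kb domain was nearly even, at 319, 304, 284 and 320 CPM, as was the Dmrt3 -0.7 kb domain, at 267, 274, 226 and 282 CPM. Dmrt1 +93.7 kb had 65.2, 59.8, 39.4 and 40.2 CPM, and Dmrt1 -43.5 kb 12, 5.99, 4.27 and 1.73 CPM. The non-neural clusters of the sample were not at 0. Mural-like nuclei (237) had 21.4 CPM at Dmrta1 -28.3 kb (95% interval 14.7 to 30.1), 115 CPM at the Dmrta2 domain and 14.1 CPM at Dmrt1 +93.7 kb, and erythroid-like nuclei (97) had 60.7 CPM (45.8 to 78.8), 226 CPM and 20.6 CPM. Levels in hem-like nuclei at Dmrta1 -28.3 kb were therefore near the mural-like level, and those in glutamatergic-like nuclei near the erythroid-like level. No doublets were called, so these small clusters may hold barcodes that mix cell types, which was not tested. These values describe the nuclei from which the genes were chosen.

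Markers of the cortical hem, a dorsomedial signalling centre, moved with the E14.5 cortex. The summed accessibility of the 6 hem markers was 565 CPM there, 216 CPM in the E12.5 cortex and 161 to 241 CPM in the GE samples, and 5 of the 6 were highest in the E14.5 cortex, with none at 0. Wnt8b had 248 CPM there, 36.7 CPM in the E12.5 cortex and 5.08 to 72.9 CPM in GE. The 10 progenitor markers summed to 1328 and 1641 CPM in the E12.5 and E14.5 cortex and to 1554 to 2173 CPM in GE. The 10 glutamatergic markers summed to 1719 and 1268 CPM in the cortex against 931 to 1052 CPM in GE, and the 10 GABAergic markers to 564 and 784 CPM against 1377 to 3140 CPM. The 6 mural markers summed to 252 CPM in the E14.5 cortex, 165 CPM in the E12.5 cortex and 161 to 242 CPM in GE. The part of the hem or of the mix of classes in the height of the Dmrta1 and Dmrt3 elements at E14.5 was not tested, beyond the values per cluster given above.

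At the level of genes, counts were summed over the peaks on each gene body and the 2000 bp upstream and expressed as CPM of the counts assigned to genes. Of 17637 genes tested between the E12.5 cortex and GE, 10.4% were called, and 2 of the 5 Dmrt genes were, both higher, as were 8.86% of all genes. Dmrt3 had 122 and 257 CPM in the cortex samples and 53.5 to 59.8 CPM in GE, and rose by a log2 fold change of 1.27 (SE 0.13, adjusted p = 0.00322 in edgeR). Dmrta2 had 178 and 306 CPM in the cortex and 76.9 to 117 CPM in GE, and rose by 1.01 (SE 0.18, adjusted p = 0.0166). Both calls were lost with an offset for covered length, at 0.86 for each gene (adjusted p = 0.212 and 0.222), a fit in which edgeR called 0 of 16253 genes, with 2029 at an unadjusted p under 0.05.

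The other 3 genes were not called. Dmrta1 had 38.1 and 133 CPM in the cortex and 14.6 to 42.9 CPM in GE (log2 fold change 0.74, adjusted p = 0.119), and was called without CGE replicate 1, at 0.86 (adjusted p = 0.0350). Dmrt1 had 72.3 and 135 CPM in the cortex and 25.2 to 35.7 CPM in GE except in MGE replicate 2, which had 81.2 CPM (log2 fold change 1.09, adjusted p = 0.218). In that sample the broad Dmrt3 peak runs back over the end of Dmrt1 and is counted for both genes, and 21.5 kb of peak was counted for Dmrt1 compared with 4.69 to 9.17 kb in the other GE samples. Leaving out each GE replicate in turn, the Dmrt1 fold change ran from 0.86 to 1.43, the highest without MGE replicate 2. Its size at gene level thus depended on the replicate left out. Dmrt2 had 44.9 and 52.5 CPM in the cortex and 38.1 to 57.2 CPM in GE (log2 fold change 0.07, adjusted p = 0.861).

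Per covered kb, gene levels in the E12.5 cortex were 11.7 CPM for Dmrta2, 9.26 for Dmrt2, 8.53 for Dmrt3, 6.75 for Dmrta1 and 5.59 for Dmrt1. In the E14.5 cortex they were 18.1, 7.90, 13.4, 16.2 and 7.64 CPM in the same order of genes, so Dmrta1 was in the fourth place at E12.5 and the second at E14.5. Each cortex age has 1 sample, and neighbours in these orders were not tested. Over the 8 samples, Pearson's r of log2(CPM + 1) was 0.960 between Dmrta2 and Dmrt3, 0.863 between Dmrta1 and Dmrta2, 0.834 between Dmrta1 and Dmrt3 and 0.808 between Dmrt1 and Dmrt3, which share a counted peak in MGE replicate 2 and in no other sample. With Dmrt2 it was between -0.156 and 0.233. The samples share depth and peak calling per library, and the 2 cortex samples weigh heavily in each value. The genes were chosen in the E14.5 cortex, so these correlations are a description.

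The 3 genes whose levels over the 8 samples were most like those of each Dmrt gene were searched among 17861 genes. The E14.5 cortex, in which the Dmrt genes were chosen, is among these samples, so the ranking is also a description. For Dmrta1 they were Tdrd9 (r = 0.994), Fam84b (0.994) and Tacr3 (0.985). For Dmrta2 they were Ror2, a Wnt co-receptor (0.985), Crhr2 (0.979) and Calml4 (0.977). For Dmrt3 they were Olfr270, Rtp1 and Syce1 (0.998 each), which had counts in the 2 cortex samples alone, at 0.920 to 3.34 CPM. For Dmrt1 they were E330021D16Rik, above 0 in 3 samples (0.968), Eda2r (0.959) and Erbb4, a neuregulin receptor (0.955). For Dmrt2 they were Hand1 (0.983), AI467606 (0.971) and Zdbf2 (0.971).

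Of 3 other DM genes, 2 were tested and 1 was called between the E12.5 cortex and GE. Dmrtb1, known for its part in the entry of male germ cells into meiosis, fell by 1.55 on the log2 scale in the E12.5 cortex (SE 0.21, adjusted p = 0.00703 in edgeR), with 10.8 and 21.6 CPM in the cortex and 29.4 to 42.2 CPM in GE. Dmrtc2 had a log2 fold change of -0.79 (adjusted p = 0.0523) and was higher in MGE than in CGE by 1.85 (adjusted p = 0.0257), against 0.108% of genes called in that contrast, a call lost without either CGE replicate or MGE replicate 1 (adjusted p = 0.196, 0.157 and 0.0789). Dmrtc1a was listed at 0 in all 8 samples and not tested.

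A list of 20 patterning genes of the telencephalon gave a setting for these values, with 7 of 20 called between the E12.5 cortex and GE, against 10.4% of all genes, 5 higher and 2 lower. Its median log2 fold change was 0.29, compared with -0.02 over all genes. Higher in the cortex were the dorsal homeobox genes Emx1 at 1.59 (adjusted p = 0.0083 in edgeR) and Emx2 at 0.76 (adjusted p = 0.0269), the hem ligand gene Wnt3a at 1.00 (adjusted p = 0.0157), and Neurog2 at 0.93 and Eomes at 1.498 of the glutamatergic lineage (adjusted p = 0.0112 and 0.0173). Lower were the ventral genes Gsx2, at -3.20 (adjusted p = 0.0308), and Dlx2, at -2.36 (adjusted p = 0.0312). Without MGE replicate 1 or without MGE replicate 2, the calls of Gsx2, Dlx2, Emx2 and Eomes were lost (adjusted p = 0.0516 to 0.0781). Gsx2 was also lost without either CGE replicate and Emx2 without either LGE replicate. Gsx2 had 7.56 and 11.1 CPM in the cortex samples and 41.2 to 141 CPM in GE. With the difference in covered peak length taken into the fit as an offset, edgeR called 0 of the 20 and 0 of all genes. It gave 3 of the 20, and 2029 of 16253 genes, at an unadjusted p under 0.05. The sign of Wnt3a turned in this fit, at -0.28 (adjusted p = 0.796). The other 13 genes were not called and had log2 fold changes between -0.42 at Bmp4 and 0.63 at Nr2f1. Among them were the other Wnt and hem genes, with Wnt2b at -0.28, Wnt8b at -0.07 (0.77, and called, without LGE replicate 2) and Lmx1a at 0.37 (adjusted p = 0.638, 0.990 and 0.215), and the proneural gene Neurog1 at -0.26 (adjusted p = 0.703). Pax6 had a log2 fold change of 0.36 (adjusted p = 0.103) and Lhx2 one of 0.61 (adjusted p = 0.0506). In the contrasts among MGE, LGE and CGE, 0 of the 5 Dmrt genes and 0 of the 20 patterning genes were called in edgeR, while 0.102% of all genes were called for MGE and LGE, 0.108% for MGE and CGE and 0.0113% for LGE and CGE. At an unadjusted p under 0.05, edgeR gave 2, 1 and 0 Dmrt genes and 6, 9 and 2 patterning genes in these contrasts. Of all 17637 genes, it gave 1548, 1719 and 651. DESeq2 called 0, 1 and 0 Dmrt genes, the 1 being Dmrta1 (adjusted p = 0.0112), and 4, 4 and 1 patterning genes, against 3.36%, 3.31% and 0.763% of all genes. No list was tested as a set.

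Counts in the motif matrices, which sum reads in peaks that carry a motif, were compared in the same way for 579 motifs, of which 0.864% were called between the E12.5 cortex and GE. The DMRT3 motif had 198 and 134 CPM of motif counts in the E12.5 and E14.5 cortex, 132 and 163 in MGE, 106 and 137 in LGE, and 133 and 182 in CGE. Its log2 fold change of 0.51 was not called (SE 0.22, adjusted p = 0.265 in edgeR), and the E14.5 cortex lay within the GE range. Among the samples numbered 1 the cortex was above all 3 GE samples, and among those numbered 2, where the cortex is the E14.5 one, it was below all 3. The motifs of LHX2, at 0.36 (adjusted p = 0.131), EMX1, at 0.25 (adjusted p = 0.165), EMX2, at -0.06 (adjusted p = 0.912), Pax6, at -0.42 (adjusted p = 0.441), and NEUROG2, at 0.63 (adjusted p = 0.0879), were not called either. DESeq2, which called 110 of the 579 motifs (19%), called LHX2, EMX1 and NEUROG2 (adjusted p = 3.16e-05, 0.00841 and 7.46e-05) and not DMRT3 (adjusted p = 0.173). A motif is shared by factors with similar binding, and its count does not name the factor.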

How the data were processed

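Single-nucleus ATAC-seq profiles of 8 WT samples were analysed from the deposited matrices of counts per peak and nucleus and of counts per motif and nucleus. Per the labels, the authors had processed the reads with Cell Ranger ATAC 1.2.0 on GRCm38 (mm10), calling peaks in each sample separately. The deposited counts are whole numbers without normalization. Most are even because both ends of a fragment are counted, so the intervals given are exact Poisson intervals at 95% on fragments of 2 counts, and they cover counting error only. All 39253 deposited barcodes were kept, and no doublet caller was run.

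Peaks overlapping by at least 1 bp were merged, counts were summed over the nuclei of each sample, and the 68274 regions with a peak in all 8 samples were tested. A region without a peak in some sample has no count there and was described only. Gene counts were summed over peaks on the body and the 2000 bp upstream (GENCODE M21), and a peak can count for more than 1 gene. Because each sample had its own peaks, a level also moves with the length covered, and values per covered kb are given beside the broad domains.

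The 7 E12.5 samples were fitted in 1 model of 4 groups with edgeR 4.0.16 in R 4.3.3 (TMM, filterByExpr, quasi-likelihood test, two-sided, Benjamini-Hochberg threshold 0.05), with 3 residual degrees of freedom from the GE pairs. Alternatives were DESeq2 1.42.0, other filters and scalings, an offset for covered length, a replicate block and leaving out each replicate. The main edgeR fit was tested on simulated counts for regions, genes and motifs, in the contrast of cortex against GE only. DESeq2 and the other alternatives were not tested this way. Nuclei were clustered per sample (TF-IDF scaled to 10000, 30 latent components less the first, 20 neighbours, Leiden resolution 0.5, leidenalg 0.10.2, scikit-learn 1.9.0) on 68253 shared regions outside the windows of the 5 genes. A class needed 3 markers raised.

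Elements named one by one are those over annotated starts, the 2 with the highest mean CPM over both cortex samples, and up to 3 called with the largest fold change. Genes most alike are the 3 with the highest Pearson r of log2(CPM + 1). Patterning genes named by rule are those called, with Emx2, Pax6, Gsx2 and Lhx2 whatever their value. Wnt2b, Wnt8b, Lmx1a, Neurog1, Bmp4, Nr2f1 and Sp8 were named in addition. The members, marker lists and class rule were chosen with earlier results of these data known. Sequences are GRCm38 reference, and the upstream windows end before the earliest start in GENCODE M21 or RefSeq.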

Additional observations from a re-analysis of the deposited data

Results flagged for a closer look

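The E14.5 cortex entered no test of the report other than alternative settings. At 4 of the 21 elements with a peak in all 8 samples, its level was more than 2 times that of the next highest sample, which was the E12.5 cortex at these 4. It had 70.0 CPM at Dmrta1 -0.5 kb, 5.51 times the next value of 12.7 CPM, and 76.7 CPM at Dmrta1 -28.3 kb, 3.27 times the next value of 23.4 CPM. It had 53.2 CPM at Dmrt1 +93.7 kb, 2.38 times the next value of 22.4 CPM, and 253 CPM at the Dmrt3 -0.7 kb domain, 2.01 times the next value of 126 CPM. The genes were chosen in this sample, so these heights are a description. Age, replicate number and dissection cannot be told apart here.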

How the results depend on the processing

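Of 21 elements, 5 were called between the E12.5 cortex and GE (26.3% of all regions), 11 with the E14.5 cortex in its place (24.2%), a count that draws on the values that chose the genes and supports nothing, 3 with MGE left out of the contrast (23.6%, chosen after seeing the data), and 5 to 8 with any replicate left out (21.3% to 29.9%), 8 of them without MGE replicate 2 (29.9%). None of the 5 was lost by leaving out a replicate. MGE against LGE gave 3 calls (10.1% of all regions), 1 with all 8 samples (0.694%), 5 with DESeq2 (16.5%) and 2 to 5 with a replicate left out (4.20% to 12.3%), 5 without MGE replicate 2 (12.3%). MGE against CGE gave 4 (8.87%) and 0 with all 8 samples (0.325%). With all 8, edgeR gave 3 elements and 8839 of all 68274 regions at an unadjusted p under 0.05. DESeq2 on the 7 E12.5 samples gave 4 (15.7%). Leaving out a replicate gave 2 to 5 (1.73% to 12.4%), 2 without CGE replicate 1 (2.20%) or replicate 2 (1.73%). Progenitor-like nuclei gave 5 (22.8% of all regions), and 5 to 7 with a replicate left out (18.6% to 25.5%). No progenitor-like cluster was found in the E14.5 cortex, so the alternatives that use it were not run there. Of the 5 genes 2 were called (10.4% of all genes), and 0 with the covered-length offset (0 of all genes). Start sites only gave 1 (2.84%), and leaving out a replicate gave 2 to 3 (6.85% to 13.4%). Of the 20 patterning genes 7 were called (10.4% of all genes), 12 with DESeq2 (16.9%), 0 with the offset (0 of all genes) and 4 to 7 with a replicate left out (6.85% to 13.4%), 4 without either MGE replicate (11.7% and 13.4%). The offset moved the median log2 fold change of all genes to -0.20 and of all regions to -0.11. The DMRT3 motif fold change of 0.51 became -0.046 with the E14.5 cortex and 0.44 to 0.58 with a replicate left out. Sp8 changed sign at 2.16 with the E14.5 cortex, Wnt3a at -0.28 with the offset and Wnt8b at 0.77 without LGE replicate 2 (range -0.36 to 0.77). The cause of these changes was not tested.

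Whether replicate numbers pair the samples was not settled, since no label says so and the deviations correlated unevenly, at 0.09 between MGE and LGE, -0.03 between MGE and CGE and 0.45 between LGE and CGE. With the replicate block, 5 elements (23.2% of all regions), 1 of the Dmrt genes and 4 patterning genes (5.24% of all genes) were called. The DMRT3 motif had 0.70 (adjusted p = 0.0386 in edgeR) in that fit, which called 2.76% of motifs. The E12.5 cortex is 1 sample, which limits every contrast that uses it.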
